A study of Mus musculus with 16 samples.

Results

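The genes of oxidative phosphorylation were followed in bone marrow of KO chimeras and of control mice. Members were chosen by name: every array gene name beginning with Ndufa, Ndufb, Ndufc, Ndufs, Ndufv, Sdha, Sdhb, Sdhc, Sdhd, Uqcr, Cox4, Cox5, Cox6, Cox7, Cox8 or Atp5. The array held 95 such names, and 91 of them were kept, among 23060 gene names tested in all. A gene was kept if the scanner software marked a probe as well above background in 6 or more of 8 arrays in one group or the other, and its brightest such probe stood for it. All 91 were well above background on all 16 arrays. The 4 names that were not kept were Cox8b, Cox8c and Cox7b2, on no array of either group, and Ndufa4l2, on 2 KO chimera and 5 control arrays. Of the 91, 78 are structural subunits (37 of complex I, 4 of complex II, 8 of complex III, 14 of complex IV and 15 of complex V), 9 are assembly factors (Ndufaf1 to Ndufaf7, Sdhaf1 and Sdhaf2) and 4 are other names that the letters brought in. Those 4 were the pseudogene Atp5c1-ps, Atp5s (now Dmac2l), Atp5sl (now Dmac2) and the supercomplex factor Cox7a2l. Ndufa4 was counted with complex I by its name, although its product is now placed in complex IV.

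The 8 KO chimeras were C57BL/6J mice given 950 rad and then whole marrow from the double beta-adrenergic receptor knockout strain Adrb1tm1BkkAdrb2tm1Bkk/J by retro-orbital injection. The labels give a ratio of 1:4 of knockout strain to C57BL/6J for the graft and do not say what the ratio counts. The 8 controls were labelled as C57BL/6J mice with the same irradiation, with no marrow donor named, so graft, donor strain and receptor genotype cannot be told apart between the groups. Tissue was taken after 2 to 3 months, sex and age are not given in the labels, and 1 array was hybridised per mouse. The design sets marrow after a graft from this strain beside control marrow. It does not isolate loss of sympathetic drive through these receptors. The knockout is constitutive and the graft may leave host cells, so each sample is a mixture of cells.

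Oxidative phosphorylation is the process by which mitochondria make most of the ATP of a resting cell. Complexes I and II pass electrons from NADH and succinate to ubiquinone, complex III passes them on to cytochrome c, and complex IV, cytochrome c oxidase, passes them to oxygen. The protons pumped on the way drive complex V, the ATP synthase. Most subunits are encoded in the nucleus, and a small core of each pumping complex and of the synthase is encoded in mitochondrial DNA. In marrow, red cell precursors and dividing progenitors depend on respiration, whereas mature neutrophils rely largely on glycolysis.

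Scanner signal was placed on a log2 scale relative to each array's 75th percentile, and all levels below are on that scaled log2 signal. Differences are KO chimera minus control. Arrays differed in brightness, with a 75th percentile of 127.2 to 545.5 signal units in KO chimeras and 230.9 to 557.7 in controls, and KO chimeras 1 to 4 (127.2 to 231.5) were the dimmest of their group. The arrays came from 6 slides and 2 scan days, and each scan day held 4 KO chimeras and 4 controls. Levels of different probes are not comparable with each other, so genes are compared only by their differences. In whole marrow, fewer cells of a type and less RNA per cell cannot be told apart. The main probe of Adrb1, 1 of the targeted genes, differed by -0.0004 between the groups (adjusted p = 0.9985, limma). A second Adrb1 probe, well above background on 7 KO chimera and 6 control arrays, was at -4.33 to -1.99 in KO chimeras and -5.13 to -3.62 in controls, a difference of 0.95 (two-sided exact permutation test, p = 0.00824). The labels do not say which part of that gene was removed, so neither probe checks the genotype.

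Most oxidative phosphorylation genes differed little between KO chimera marrow and control marrow. The median absolute difference was 0.099 over the 78 subunits and 0.194 over all gene names. Of the 91 kept members, 8 passed the test (limma, Benjamini-Hochberg adjusted p under 0.05 over all 23060 names), which is 8.79%, while 22.3% of all gene names passed. By direction, 2 members were higher (10.2% of all names were) and 6 were lower (12.1% of all names were). Cox5a was among the higher ones, and the lower ones were Cox5b, Ndufa3, Atp5s, Ndufaf7, Cox7a2 and Ndufb11. The median difference was -0.04 over the 91 members, -0.04 over the 78 subunits and -0.02 over all gene names. Of the 78 subunits, 74 had a 95% interval of the difference that lay wholly within 0.5 (log2) of 0, which is 94.9%, and 49.7% of all gene names had such an interval. These genes were also measured more tightly than most: the median standard error of the difference was 0.087 for subunits and 0.131 over all names, so a narrow interval reflects the precision as well as the size of the difference. The number of mice limits that precision, and an interval within 0.5 does not exclude a smaller change.

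**Figure D1:**
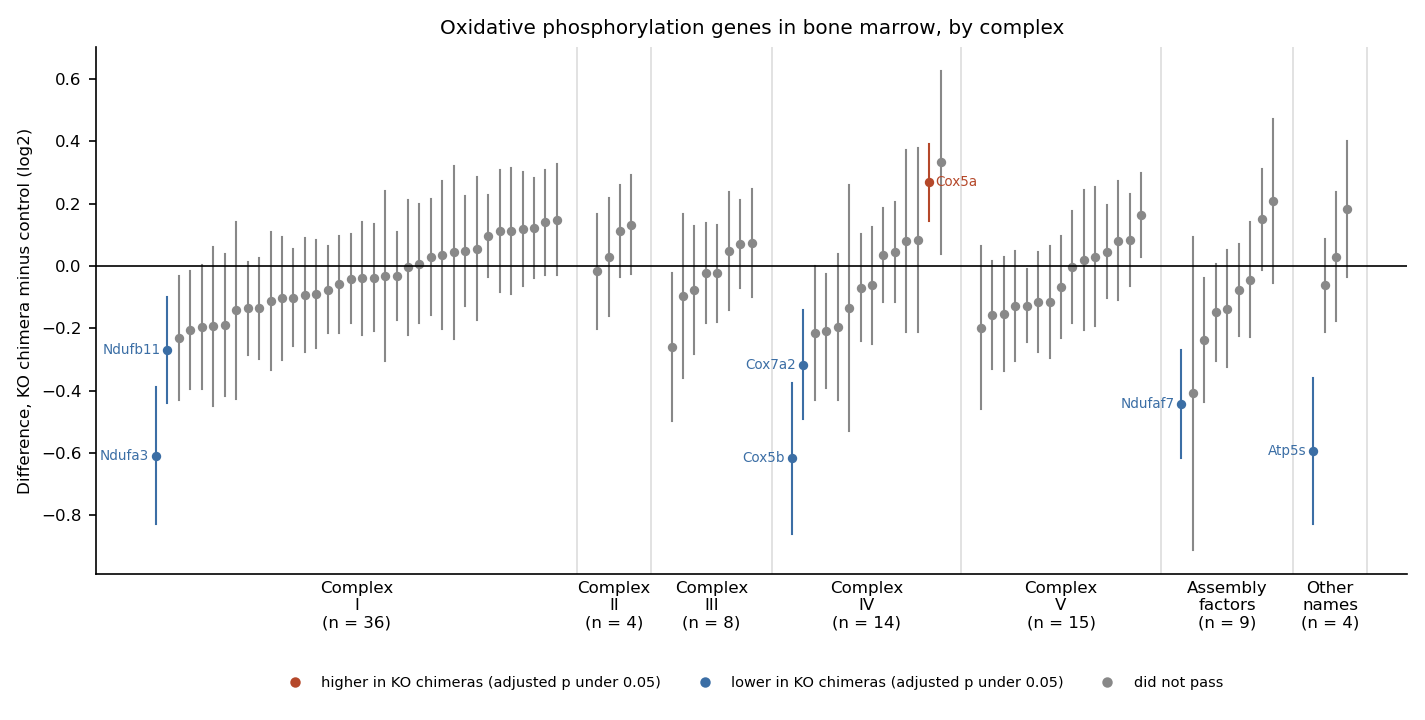
Difference in scaled log2 signal, KO chimera minus control, for 90 of the 91 kept genes, grouped by complex and sorted by size within each group; points are estimates and lines are 95% intervals (8 mice per group). Red points passed the test as higher in KO chimeras and blue points as lower; most intervals cross 0, and complex IV holds both Cox5a at 0.27 and Cox5b at -0.62.

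The probes behind the genes that passed are short DNA sequences on the array, and where they sit on the transcript bears on what was measured. Stretches of them are given here because 5 of the 6 subunits that passed were read by probes holding the letters AATAAA or ATTAAA, the common polyadenylation signal near the end of an mRNA. Capitals mark those letters, all stretches run 5′ to 3′, and positions are those of the whole probe on mm9, per the file headers. The files do not annotate exons or untranslated regions for them.
Cox5b probe, chr1:36750171-36750230, plus strand: aaacttctctctAATAAAgattagccattg
Cox7a2 probe, chr9:79603215-79603274, minus strand: ttaactgctgccAATAAAgcaatccttaac
Ndufa3 probe, chr7:3571695-3571754, plus strand: ctgttgctctccAATAAAaatgtgaaaact
Ndufb11 probe, chrX:20192453-20192512, minus strand: tcagaacaccttATTAAAggaattgaaagt
The Cox5a probe lies on the plus strand at chr9:57379593-57380141, a span longer than the probe, and has neither set of letters.
Cox5a probe: cctaaggacttaactgctattgctacttga

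Among all 78 subunits, 33 (42.3%) were read by a probe with these letters, against 17.2% of all gene names. Subunits whose probe holds them had a median difference of -0.09, with 1 higher and 4 lower of 33. Subunits whose probe lacks them had a median difference of 0.007, with 1 higher and 0 lower of 45. Over all gene names, 22.9% of those with the letters and 22.2% of those without them passed, with medians of -0.05 and -0.01. This split was chosen after the values were seen, and it was not tested.

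Complex IV, the terminal oxidase, held 3 of the 8 members that passed. That is 21.4% of its 14 subunits, near the 22.3% of all gene names. Cox5a and Cox5b code for neighbouring nuclear subunits of the same enzyme, both with a role in its assembly and regulation. Cox5a was higher in KO chimeras, at 6.46, 6.56 and 6.71 (lowest, median and highest of 8), against 6.19, 6.31 and 6.37 in controls. All 8 KO chimeras lay above the highest control. The difference was 0.27 ± 0.059 (SE, n = 8 mice per group, adjusted p = 0.00321, limma).

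Cox5b was lower, at 4.87, 5.44 and 5.78 in KO chimeras, against 5.88, 6.09 and 6.17 in controls. Again the groups did not overlap, with all 8 KO chimeras below the lowest control, and the KO chimeras spread more widely (SD 0.306) than the controls (SD 0.0978). KO chimeras 1 to 4, the dimmest arrays of their group, stood at 4.87 to 5.36 and KO chimeras 5 to 8 at 5.51 to 5.78. The difference was -0.62 ± 0.11 (SE, n = 8 per group, adjusted p = 0.000845, limma). Within each mouse, the Cox5a level minus the Cox5b level, centred on its mean over the 16 mice, was 0.0833 to 0.917 in KO chimeras, against -0.56 to -0.28 in controls. The balance of the 2 probes thus separated every KO chimera from every control, as the separate values already imply. The largest value was that of KO chimera 2, the dimmest array, and the smallest among KO chimeras was that of KO chimera 7.

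**Figure D2:**
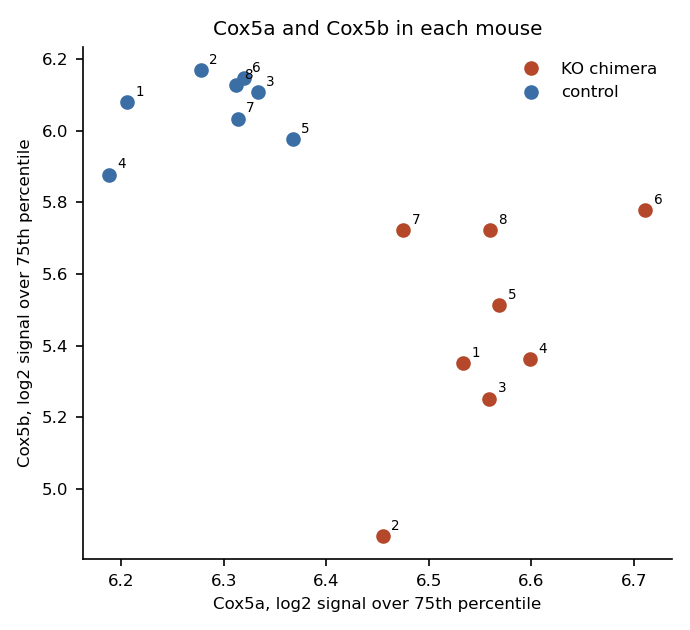
Scaled log2 signal of Cox5a (horizontal) and Cox5b (vertical) in each mouse, with the mouse number beside the point. KO chimeras lie to the right of and below all controls: Cox5a is 6.46 to 6.71 in KO chimeras and 6.19 to 6.37 in controls, and Cox5b is 4.87 to 5.78 in KO chimeras and 5.88 to 6.17 in controls.

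Cox7a2, the widely expressed form of a small subunit at the edge of the enzyme where dimers and supercomplexes form, was at 4.67, 4.88 and 5.12 in KO chimeras, against 5.03, 5.19 and 5.39 in controls. In 6 of 8 KO chimeras it lay below every control. The difference was -0.32 ± 0.083 (SE, n = 8 per group, adjusted p = 0.0104, limma). The other 11 subunits of complex IV did not pass. Cox4i1, the main form of the regulatory subunit that binds ATP, had the smallest difference, 0.03, with a median of 6.73 in KO chimeras and 6.68 in controls. The median difference over the 14 was -0.07, and 11 of 14 intervals lay within 0.5 of 0.

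Several subunits of complex IV come as a widely expressed form and a form known mainly from heart, skeletal muscle, lung or testis, and 4 of the latter could be measured. Cox7a1, the heart and muscle form, was at -1.90, -1.12 and -0.94 in KO chimeras, against -1.94, -1.54 and -1.24 in controls, with a difference of 0.33 (95% interval 0.04 to 0.63) that did not pass (adjusted p = 0.0997, limma). Cox4i2, known from lung, differed by 0.08 ± 0.14 (SE), with 2 control arrays left out for outlier spots. Cox6a2, the muscle form, differed by 0.08 ± 0.14, and Cox6b2, known from testis, by -0.14 ± 0.19. None of the 4 passed, and 1 of the 4 had an unadjusted p under 0.05, as had 7815 of all 23060 gene names. Of 12 skeletal muscle markers on the array 6 were kept, and none passed (none at an unadjusted p under 0.05 either). Among the 6 was Actn3, well above background on 2 KO chimera and 6 control arrays, so it was kept through the controls alone. The summed linear signal of the 6 was 1.66 to 2.48 times the 75th percentile in KO chimeras and 1.81 to 2.43 times in controls. Myh1, Myh2, Myh4, Myl1, Ckm and Mb were not kept.

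Among the widely expressed counterparts, Cox6a1 was at 7.68 to 7.76 in KO chimeras 1 to 4 and at 8.07 to 8.24 in KO chimeras 5 to 8, against 8.05 to 8.37 in controls. Its difference of -0.21 ± 0.10 did not pass (adjusted p = 0.148). Cox7b (-0.21, adjusted p = 0.0993), Cox8a (-0.20, adjusted p = 0.234), Cox6b1 (0.05, adjusted p = 0.724) and Ndufa4 (-0.03, adjusted p = 0.893) did not pass either, and neither did the supercomplex factor Cox7a2l (-0.06, adjusted p = 0.591, all limma).

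Complex I, the NADH dehydrogenase, is the largest of the 5 complexes, and 3 of its 37 measured subunits passed (8.11%, against 22.3% of all gene names). Ndufa3, a small accessory subunit of the membrane arm, was at 4.54, 5.05 and 5.34 in KO chimeras, against 5.51, 5.61 and 5.71 in controls. The groups did not overlap, and the difference was -0.61 ± 0.10 (SE, n = 8 per group, adjusted p = 0.000416, limma). KO chimeras 1 to 4, the dimmest arrays of their group, stood at 4.54 to 4.94 and KO chimeras 5 to 8 at 5.15 to 5.34. A second Ndufa3 probe, at chr7:3569447-3569506 upstream of the first on the plus strand, differed by 0.0072 ± 0.098 (adjusted p over all kept probes 0.97, limma), so the lower value stood at 1 of the 2 probes. The second probe was far dimmer, with means of -1.95 in KO chimeras and -1.96 in controls, against 5.01 and 5.62 at the first.

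Ndufb11, an accessory subunit of the membrane arm encoded on the X chromosome, was at 5.84, 6.13 and 6.34 in KO chimeras, against 6.15, 6.37 and 6.59 in controls. In 5 of 8 KO chimeras it lay below every control, and the difference was -0.27 ± 0.081 (adjusted p = 0.023, limma). Its second probe went the same way, by -0.34 ± 0.11 (adjusted p over all kept probes 0.0325, limma). That probe was also far dimmer, with means of -1.13 in KO chimeras and -0.79 in controls.

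Over the 7 core nuclear subunits of complex I, which carry the flavin and the iron-sulphur clusters or the quinone site, the median difference was 0.06, with 5 above 0 and 2 below. Over the other 30 subunits it was -0.05, with 9 above 0 and 21 below. Ndufb7, a membrane-arm subunit, had the smallest difference of the complex, -0.005, with a median of 5.75 in KO chimeras and 5.86 in controls. The median over all 37 was -0.04, and 36 of the 37 intervals lay within 0.5 of 0.

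Complexes II, III and V held no gene that passed (limma). At an unadjusted p under 0.05 complex II had 0 genes, complex III had 1 and complex V had 2. Of all 23060 gene names 7815 had such a p. Complex II, succinate dehydrogenase, also belongs to the citric acid cycle and has no mitochondrially encoded subunit. Its 4 genes had a median difference of 0.07. Sdhc, a membrane anchor, had the largest, 0.13 ± 0.075 (adjusted p = 0.232), and Sdhb, the iron-sulphur subunit, the smallest, -0.02 ± 0.087 (adjusted p = 0.917, both limma).

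Complex III, the cytochrome bc1 complex, had a median of -0.02 over 8 genes. Uqcrh, the hinge protein near the cytochrome c docking site, was at 5.83, 6.26 and 6.48 in KO chimeras, against 6.25, 6.48 and 6.61 in controls. KO chimeras 1 to 4 stood at 5.83 to 6.16 and KO chimeras 5 to 8 at 6.35 to 6.48. The difference of -0.26 ± 0.11 did not pass (adjusted p = 0.11, limma), while a second probe, shifted by a few bases, gave -0.27 ± 0.091 (adjusted p over all kept probes 0.039). Uqcrb, which binds ubiquinone, differed by -0.02 ± 0.074 (adjusted p = 0.864, limma).

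Complex V, the ATP synthase, had a median of -0.07 over 15 genes, with 6 above 0 and 9 below. Atp5a1, the alpha subunit of the catalytic head, was at 5.67, 5.80 and 5.95 in KO chimeras, against 5.49, 5.67 and 5.73 in controls, and its difference of 0.16 ± 0.064 did not pass (adjusted p = 0.0768, limma). Atp5d, the delta subunit of the central stalk, had the smallest difference, -0.0026 ± 0.085. Atp5c1, the gamma subunit that forms the rotating shaft, is given because its groups did not overlap, a choice made after its values were seen. It was at 5.71, 5.77 and 5.82 in KO chimeras, against 5.83, 5.88 and 6.00 in controls, a difference of -0.13 ± 0.055 that did not pass (adjusted p = 0.11, limma). It had the lowest spread within groups of all members (SD 0.0551), and limma sets such a spread against that of all genes. A second Atp5c1 probe differed by -0.03 ± 0.068 (adjusted p over all kept probes 0.769, limma). In all, 4 of the 91 members had groups that did not overlap (Cox5a, Cox5b, Ndufa3 and Atp5c1), and 6.14% of all gene names did.

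The 13 members that are not subunits gave 2 that passed. These were 1 of the 9 assembly factors (11.1%) and 1 of the 4 other names (25%), against 22.3% of all gene names. Ndufaf7, a methyltransferase that acts during the assembly of complex I, was at 1.40, 1.47 and 1.91 in KO chimeras, against 1.78, 2.00 and 2.11 in controls. In 7 of 8 KO chimeras it lay below every control, and the difference was -0.44 ± 0.082 (adjusted p = 0.000848, limma). Atp5s, listed under the name of a coupling factor of the ATP synthase, was at -2.05, -1.62 and -1.15 in KO chimeras, against -1.25, -1.02 and -0.82 in controls. The difference was -0.59 ± 0.11 (adjusted p = 0.000886, limma), with 7 of 8 KO chimeras below every control. The median over the 9 assembly factors was -0.14, with 2 above 0 and 7 below.

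**Figure D3:**
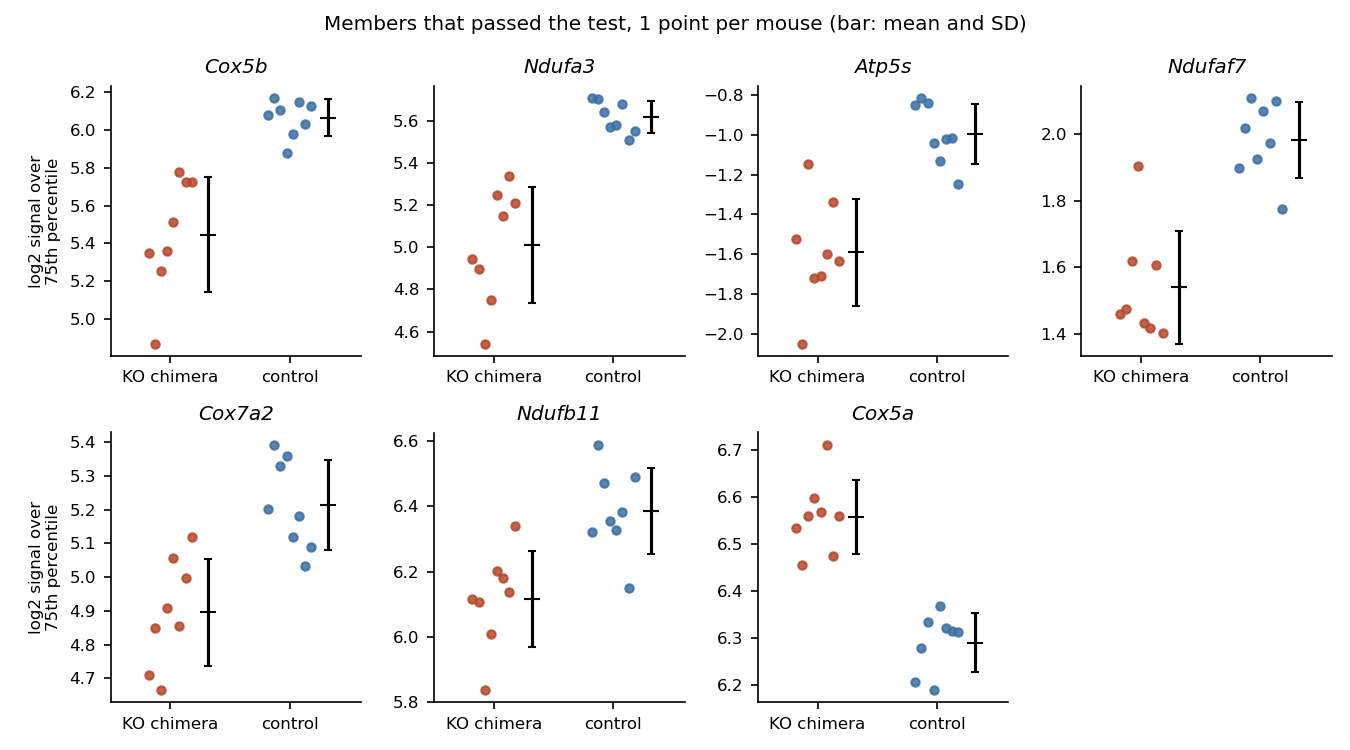
Scaled log2 signal of 7 of the 8 genes that passed the test, 1 point per mouse, with 8 KO chimeras on the left and 8 controls on the right of each panel; black bars give mean and SD. Cox5b, Ndufa3 and Cox5a show no overlap between the groups, and each panel has its own vertical scale.

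All 8 genes kept their direction on each scan day, where 4 KO chimeras met 4 controls. Cox5a differed by 0.28 on day 1 and 0.26 on day 2, Cox5b by -0.68 and -0.55, Ndufa3 by -0.74 and -0.48, and Atp5s by -0.62 and -0.57. Ndufaf7 differed by -0.45 and -0.44, Cox7a2 by -0.39 and -0.25, and Ndufb11 by -0.29 and -0.25. With 4 mice per group, Ndufa3 passed on day 1, and Ndufa3, Cox5b, Atp5s and Ndufaf7 passed on day 2 (limma). With scan day as a block all 8 passed, and with slide as a block 7 did. With array brightness as a covariate Cox5b differed by -0.49 (adjusted p = 0.00018), Ndufa3 by -0.52 (adjusted p = 0.000386) and Cox5a by 0.28 (adjusted p = 0.00426). Under that covariate Ndufb11 did not pass (-0.23, adjusted p = 0.0542).

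Seen mouse by mouse, the 2 groups overlapped for every complex. Each gene was centred on its mean over the 16 mice, and the median over the genes of a complex was taken for every mouse. Over the 78 subunits this value was -0.14 to 0.06 in KO chimeras (median 0.02), against -0.13 to 0.17 in controls (median 0.01). KO chimeras 1, 2 and 3 were at -0.13, -0.14 and -0.13, and KO chimeras 5 to 8 at 0.05 to 0.06. Control 8 was at -0.13 and control 3 at 0.17. For complex IV, KO chimeras 1 to 4 stood at -0.23 to -0.15 and KO chimeras 5 to 8 at 0.03 to 0.17, against -0.08 to 0.18 in controls.

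The low KO chimeras for complex IV were also the 4 dimmest arrays of their group. Controls did not follow that order: the dimmest, control 4, was at 0.095 for complex IV, and the brightest, control 8, was the lowest at -0.08. The part of brightness in these values was not tested. With brightness as a covariate the median difference of complex IV was 0.0055, against -0.07 without it, that of complex III was 0.0058, against -0.02, and those of complexes I, II and V were -0.05, 0.06 and -0.05. Within scan day 1 the complex IV median was -0.15 and within scan day 2 it was 0.02, and that of complex III was -0.09 and 0.05. For complexes I to IV the median difference was smaller than the spread of mice within groups (SD 0.105 to 0.129), and for complex V it was -0.07 with a spread of 0.0637. The group medians of complex V were -0.0018 in KO chimeras and -0.0027 in controls.

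**Figure D4:**
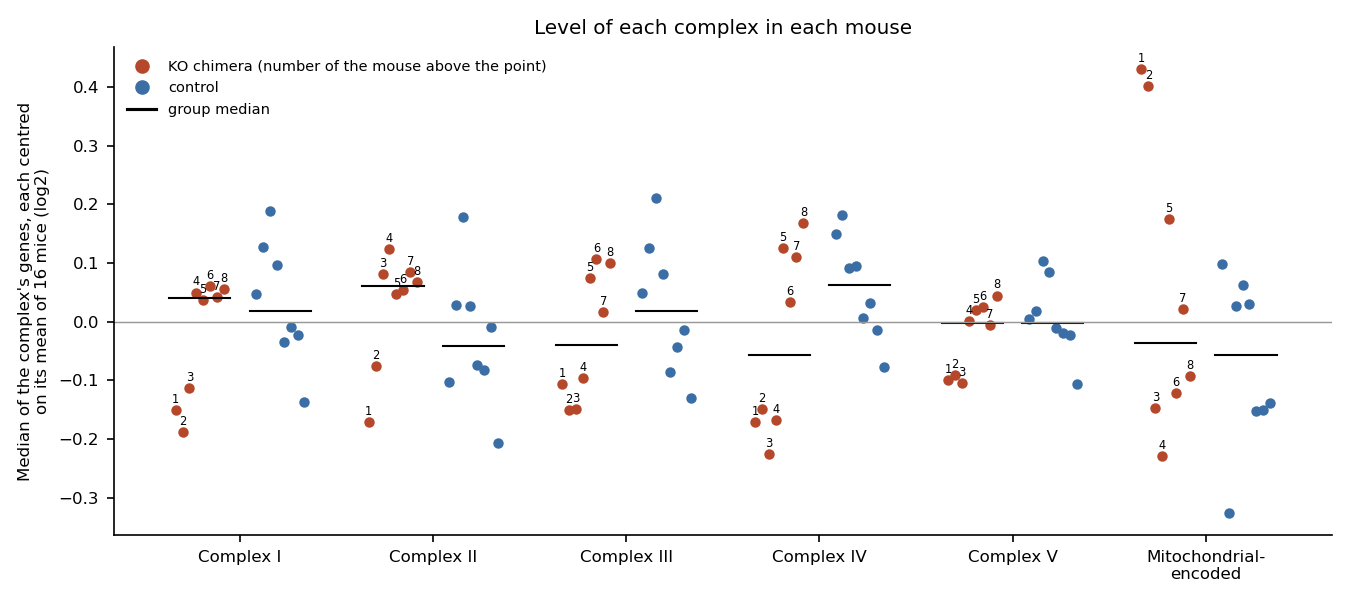
Median over the genes of each complex in each mouse, after centring each gene on its mean over 16 mice (log2); the last pair shows the 13 subunits encoded in mitochondrial DNA. Bars mark group medians and numbers mark KO chimeras; KO chimeras 1 to 4 lie at -0.23 to -0.15 for complex IV, and KO chimeras 1 and 2 at 0.43 and 0.40 for the mitochondrially encoded genes.

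The subunits encoded in mitochondrial DNA stood outside the name rule, and all 13 were measured. None passed (limma). An unadjusted p under 0.05 was found for 3 of the 13, and for 7815 of all 23060 gene names. The median difference of the 13 was 0.11, with 9 above 0 and 4 below. ND4L (0.33 ± 0.12, adjusted p = 0.0569) and ND1 (0.33 ± 0.12, adjusted p = 0.0592), both subunits of the membrane arm of complex I, had the smallest p. With quantile normalization ND4 (0.23, adjusted p = 0.0485) and COX3 (0.29, adjusted p = 0.01) passed. By mouse, the median of the 13 was 0.43 in KO chimera 1 and 0.40 in KO chimera 2, mice in which the nuclear subunits were at -0.13 and -0.14. The other KO chimeras lay between -0.23 and 0.17 and the controls between -0.33 and 0.10. Mitochondrial transcripts are cut from long shared precursors, so the 13 values are not independent.

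Genes that build and feed the chain were set beside the subunits, from lists of known pathway members. Of 8 electron carriers and nuclear subunits with other names, 0 were higher and 1 was lower (12.5%, against 22.3% of all gene names). That was 2010107E04Rik (Atp5mpl in RefSeq, a small proteolipid of the ATP synthase), by -0.24 ± 0.071 (adjusted p = 0.0233, limma). Cytochrome c itself, Cycs, differed by -0.09 ± 0.09.

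Of 40 assembly factors of all complexes, which include the 9 above, 3 were higher and 3 lower (15%, against 22.3% of all gene names), with a median of -0.04. Cox18, an insertase that places a core subunit of complex IV in the membrane, was higher by 0.54 ± 0.081 (adjusted p = 0.000128). Cox10, which makes haem O for complex IV, was higher by 0.51 ± 0.082 (adjusted p = 0.000244), and Coa3, an early complex IV assembly factor, by 0.42 ± 0.081 (adjusted p = 0.00122). Acad9, an acyl-CoA dehydrogenase that also helps assemble complex I, differed by -0.69 ± 0.09 (adjusted p = 2.68e-05), and Ndufaf7 was lower as given above. Lyrm7, a chaperone of the complex III iron-sulphur protein, also passed as lower (adjusted p = 0.02, all limma). It was not well above background on any KO chimera array and was on 6 control arrays, so no fold is given for it. Lyrm7 was thus kept through the controls alone, and it is counted in the 3 lower. With its KO chimera values raised to each array's lowest signal marked well above background, control minus KO chimera was -0.30. No decrease is shown there, and Lyrm7 did not pass with slide as a block.

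Of 18 regulators of mitochondrial biogenesis none passed (limma). An unadjusted p under 0.05 was found for 4 of the 18, and for 7815 of all 23060 gene names. Among the 4 was Ppargc1a, well above background on 4 KO chimera and 8 control arrays. It was thus kept through the controls alone, and no size is given for it. Pprc1, a coactivator of the PGC-1 family, had the smallest p, with -0.38 ± 0.14 (adjusted p = 0.0661), followed by the deacetylase Sirt1 with 0.28 ± 0.11 (adjusted p = 0.0854). Of 24 genes of mitochondrial import and mass, 0 were higher and 2 lower (8.33%, against 22.3% of all gene names). Both are subunits of the outer membrane translocase: Tomm22 by -0.64 ± 0.089 (adjusted p = 5.69e-05) and Tomm40 by -0.43 ± 0.11 (adjusted p = 0.00878). Tomm20 (-0.14, adjusted p = 0.375) and Tomm70a (-0.17, adjusted p = 0.265, all limma) of the same translocase did not pass.

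The citric acid cycle list, 17 genes, had 1 higher and 2 lower (17.6%, against 22.3% of all gene names). Pdhb, the beta subunit of pyruvate dehydrogenase, which feeds the cycle, differed by -0.69 ± 0.087 (adjusted p = 1.96e-05), and fumarase Fh1 by 0.43 ± 0.096 (adjusted p = 0.0034, both limma). Of 22 glycolysis genes 1 was higher and 1 lower (9.09%). Pyruvate kinase Pkm differed by -0.65 ± 0.11 (adjusted p = 0.000276) and the glucose carrier Slc2a1 by 0.62 ± 0.16 (adjusted p = 0.00847). Each list thus had members on both sides or few that passed, and none had a median farther than 0.11 from 0.

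**Figure D5:**
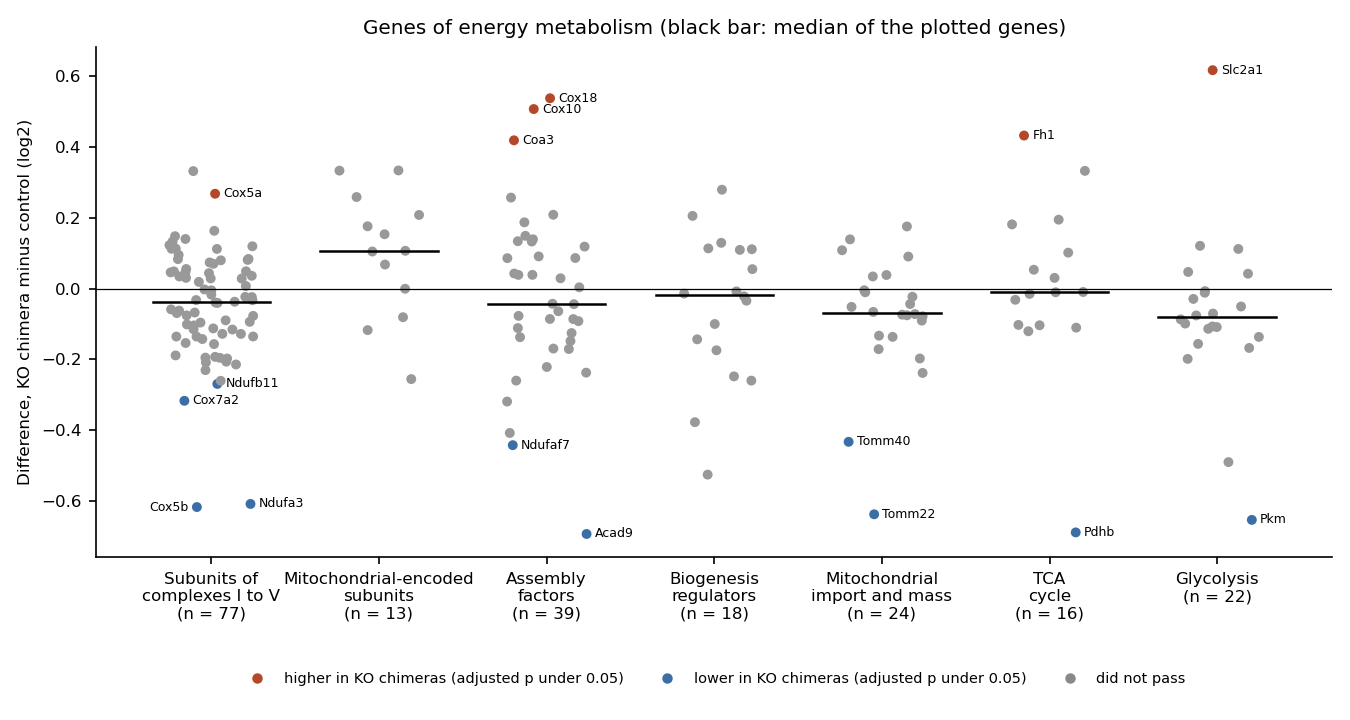
Difference in scaled log2 signal, KO chimera minus control, for 77 of the 78 nuclear subunits and 6 lists of related genes, with 16 of the 17 genes of the citric acid cycle; each point is 1 gene, the black bar is the median of the plotted genes, and colours mark genes that passed the test. Lyrm7, not well above background on any KO chimera array, is not plotted. Medians lie between -0.08 and 0.11, and single genes such as Pdhb (-0.69) and Slc2a1 (0.62) lie far from them.

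Nnt, the transhydrogenase of the inner membrane that uses the proton gradient to make NADPH, is known to carry a deletion in C57BL/6J mice. It was at 2.78, 3.10 and 3.21 in KO chimeras, against 1.62, 1.83 and 2.16 in controls. No KO chimera overlapped with a control, and the difference was 1.24 ± 0.091 (adjusted p = 3.23e-08, limma), larger than that of any oxidative phosphorylation gene here.

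Promoters of nuclear subunit genes are known for sites of the factors NRF1, the ETS factor GABP and YY1. RefSeq promoter windows (GRCm38.p6, from 250 bases before to 50 after the start site) were found for 65 of the 78 subunit genes, in 70 windows. The NRF1 motif, GCGC, any base and then TGCGC, stood in 25.7% of these windows and in 4.6% of all 32851 windows. AAGATGGC (YY1) stood in 14.3% and 2.75%, CCGGAAGT (ETS) in 7.1% and 3.89%, and TCAAGGTCA (ERRA) in 2.9% and 0.42%, each searched on both strands. Subunit windows were also richer in G and C (median 58.0%, against 52.7% of all windows), and the NRF1 letters consist mostly of G and C. One match per complex is shown, with the matched letters in capitals and each stretch read on the gene's strand. In Sdha and Atp5c1 the motif lies on the opposite strand. Their capitals show its reverse complement, GCGCA, any base and then GCGC.
Ndufa11 (complex I), chr17:56717692-56717721, plus strand: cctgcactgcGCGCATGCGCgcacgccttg
Sdha (complex II), chr13:74350319-74350348, minus strand: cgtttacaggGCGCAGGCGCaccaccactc
Uqcrc1 (complex III), chr9:108936643-108936672, plus strand: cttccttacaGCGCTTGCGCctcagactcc
Cox6a1 (complex IV), chr5:115349101-115349130, minus strand: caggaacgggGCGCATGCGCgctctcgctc
Atp5c1 (complex V), chr2:10080430-10080459, minus strand: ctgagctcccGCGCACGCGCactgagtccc
The 17 subunit genes with an NRF1 match had a median difference of -0.06 with 0 higher and 0 lower, and the 48 without one had a median of -0.07 with 1 higher and 4 lower. Of all 78 subunits 7.69% passed, and of all gene names 22.3%. With so few that passed, the counts do not tell the 2 sets apart, and they were not tested against each other. A match in these letters is a description of the window, not a bound site. Neither Nrf1 (0.11 ± 0.099, adjusted p = 0.47) nor Gabpa (0.11 ± 0.1, adjusted p = 0.49) nor Yy1 (-0.10 ± 0.091, adjusted p = 0.48) passed in these samples (limma).

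Marker lists of the cell types that marrow may hold were set beside these results, against the 22.3% of all gene names that passed. An unadjusted p under 0.05 was found for 7815 of all 23060 names (limma). Neutrophil markers gave 0 of 10 that passed, with a summed linear signal of 2690 to 4138 times the 75th percentile in KO chimeras and 2881 to 3380 in controls. Erythroid markers gave 0 of 11, with sums of 788 to 1472 in KO chimeras and 721 to 1439 in controls (limma; 0 and 1 at an unadjusted p under 0.05). Megakaryocyte and platelet markers were lower for 5 of 7, with sums of 21.4 to 49.7 in KO chimeras and 39.1 to 73.5 in controls. Macrophage markers were lower for 5 of 8, with sums of 39.0 to 71.5 in KO chimeras and 38.2 to 63.2 in controls. Each sum follows the brightest probes of its list. For macrophages that was Csf1r (mean 5.35 in KO chimeras and 5.13 in controls), the 1 marker with a difference above 0. Csf1r did not pass (0.22 ± 0.16, adjusted p = 0.35, limma), so this sum says little on the 5 lower markers. T cell markers were lower for 2 of 6 (sums of 11.3 to 29.2 in KO chimeras and 31.6 to 76.8 in controls), and B lineage markers had 2 higher and 0 lower of 8 (25%), with 5 differences above 0 and 3 below (sums of 53.0 to 125 in KO chimeras and 46.5 to 126 in controls). Markers of cycling cells had 1 higher (Rrm2, 0.47 ± 0.16, adjusted p = 0.0435) and 1 lower (Top2a, -0.30 ± 0.091, adjusted p = 0.0244) of 6, with sums of 155.5 to 291.6 in KO chimeras and 172.8 to 242 in controls. Endothelial markers had 1 lower of 3 (Cdh5, adjusted p = 0.00468, all limma), with sums of 17.7 to 27.9 in KO chimeras and 17.4 to 26.8 in controls. That sum mostly follows Kdr (mean 4.40 in KO chimeras and 4.33 in controls), which did not pass. Cdh5 was well above background on 5 KO chimera and 8 control arrays, so it was kept through the controls alone. No size is given for it. Of 4 adipocyte and 5 osteoblast markers none passed (limma; 0 and 1 at an unadjusted p under 0.05), and no brown fat marker was kept. The part of these differences in the values of Cox5b, Ndufa3, Cox7a2 and the other genes that passed was not tested.

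Many of these genes have processed pseudogenes or near-identical copies elsewhere in the mouse genome, as background knowledge, and a probe cannot tell such copies from the gene. Of the 91 members, 29 had more than 1 kept probe. In 4 of the 29 a probe other than the brightest passed (adjusted over all kept probes, limma): among them the second probes of Ndufb11 and Uqcrh given above, and a probe of Ndufv3 with 0.36 ± 0.099 (adjusted p = 0.0144), against -0.09 ± 0.084 at the brightest Ndufv3 probe.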

How the data were processed

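Per the labels' protocols, total RNA of 16 marrows was Cy3-labelled and put on 1-colour Agilent arrays, 1 per mouse. The quantification software was Agilent Feature Extraction, with version 10.7 in the submitters' processing notes and version 10.1.1.1 in the headers. Deposited files of the scanner hold spot intensity on a linear scale, already background-subtracted per the file headers. The authors' value table of 59305 rows holds log2 values with a floor at 2.3, whose scaling is not stated beyond a quantile normalization in the labels. It was used only as an alternative.

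From the scanner intensity, log2 signal minus each array's 75th percentile was computed, control and outlier spots were left out and spots of 1 probe were averaged. Of 55681 probes 32693 were kept, and 4 gene names with fewer than 3 values in a group were left out. The test was limma (version 3.58.1, R 4.3.3; lmFit, eBayes, Benjamini-Hochberg over 23060 names). Accessions of 86 members matched RefSeq. The code was tested on simulated data. Alternatives covered normalization, background, filters, probe choice, slide, scan day, brightness and each mouse left out. No spot was saturated. Whether mice shared a litter or cage is not stated, and p-values measure the spread between these mice.

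Members, pathway lists and markers were chosen with earlier results of these data known. Genes were named by rule: all that passed, the smallest p and smallest difference of each complex, isoform pairs, and up to 3 genes per pathway list that passed, or the 2 with the smallest p, with Cox7a2l, Adrb1, Nnt and some other probes of named members. Coa3, Lyrm7, Tomm20, Tomm70a, Rrm2, Top2a, Cdh5, Kdr, Csf1r, Actn3, Ppargc1a, Cycs, Nrf1, Gabpa, Yy1, Atp5c1 and Ndufv3 were added after their values were seen. A further targeted gene and some genes that the naming rule picks are not reported here.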

Additional observations from a re-analysis of the deposited data

Results flagged for a closer look

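Single mice stood apart from the other 7 of their group in 5 of 66 groups of values examined (Dixon's test at the 95% level), where chance gives about 1 in 20. Atp5d was lowest in KO chimera 2, at 3.58 with the nearest KO chimera at 3.91. Ndufa4 was highest in KO chimera 4, at 5.44 with the nearest at 4.90. Ndufaf7 was highest in KO chimera 4, at 1.91 with the nearest at 1.62. Sdhb was highest in KO chimera 6, at 5.69 with the nearest at 5.30. Cox6b2 was lowest in control 5, at 1.64 with the nearest control at 2.07. Of these genes only Ndufaf7 passed the test between groups, and its value in KO chimera 4 was the one nearest to the controls.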

How the results depend on the processing

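Across the alternatives that kept all 16 mice, 7 to 10 members passed against 8 in the main setting (12 of 131 probes when each probe was tested), apart from 5 with a replicate block, 1 and 4 within scan day 1 and 2 (4 mice per group, where 1609 and 2314 of all genes passed, against 5140) and 5 at an adjusted p under 0.01 (2997 of all genes). With quantile normalization 8.79% of members and 23.3% of all gene names passed. With another background correction before it these were 11% and 21.7%. Over all alternatives other than single mice left out, 1609 to 6225 gene names passed. No share over all kept probes is given beside the 12 probes. No member that passed reversed, and the medians of complexes III and IV changed sign in some settings. Replicate numbers did not pair the mice: the correlation of same-numbered mice ran from -0.19 to 0.20, 2 of 8 pairs were over 0.1, and 1 of 8 KO chimeras correlated best with its own number. Mitochondrially encoded genes that passed numbered 2 with quantile normalization and 1 with slide as a block, biogenesis regulators 1 under each (Sirt1), and carriers 0 with slide as a block. The cause was not tested. Leaving out each mouse in turn gave 7 to 11 members and 4392 to 5325 genes, and 7 of the 8 members passed each time. Ndufb11 did not pass in 7 of 15 other alternatives, Cox7a2 in 3, Cox5a in 2, Cox5b, Atp5s and Ndufaf7 in 1 each and Ndufa3 in none. Complex medians ran over all alternatives from -0.08 to -0.01 for complex I, 0.01 to 0.10 for II, -0.09 to 0.05 for III, -0.15 to 0.03 for IV and -0.12 to -0.04 for V. Another scaling moved the median of all genes by at most 0.01.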
